A study of Homo sapiens with 24 samples.

Results

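Ribosome biogenesis is the nucleolar process in which RNA polymerase I copies the ribosomal DNA, small nucleolar RNPs (snoRNPs) modify the precursor rRNA, and a long series of assembly factors cuts, folds and packs it into the small and the large ribosomal subunit. It is one of the most costly programs of a growing cell, is high in colorectal cancer cells, and many of its genes are known targets of the transcription factor MYC. The transcripts of 38 such genes, taken by name from a list, were measured in HT29 cells, an established human colon adenocarcinoma line. The list was chosen with earlier results of these data known. All 38 were among the 20703 genes tested. By role, 4 encode subunits of RNA polymerase I, 3 the proteins of the box C/D snoRNP, 4 those of the box H/ACA snoRNP, 5 are nucleolar phosphoproteins and chaperones, 10 act in the small subunit processome or in maturation of the small subunit, and 12 act in assembly of the large subunit.

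The HT29 cells had received for 6 h no treatment (NT), the culture supernatant of a propionibacterium at a dilution of 1/2 (SN), the acids C3/C2 (30 mM propionate and 15 mM acetate, the amounts of the main metabolites in the diluted SN), the death ligand TRAIL (100 ng/ml with 2 µg/ml anti-Flag antibody), or TRAIL together with the acids (TRAIL+C3/C2) or with the supernatant (TRAIL+SN). Each of the 6 groups had 4 one-color arrays, 24 in all, hybridized with Cy3-labeled cRNA. The study describes 2 independent experiments in duplicate, so the 4 arrays of a group are not 4 independent experiments. The labels do not say which replicates belong together. The p-values therefore cover the spread between these arrays, part of which may be technical. Apart from C3/C2, which had arrays on both slides of the NT arrays, every treatment was compared with NT across slides: SN and TRAIL shared slide 3 and both co-treatments shared slide 4.

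A level is given here as log2 intensity minus that of the 75th percentile of all spots on its array, and a difference of 1 between levels is a fold of 2. The members were detected throughout: each was well above background on all 24 arrays, from PPAN at a mean level of -0.94 to FBL at 7.71. Levels of different genes come from different probes and are not compared with each other. Correlations between arrays of a group ran from 0.993 to 0.998. The 75th percentile itself lay between 745 and 1009 intensity units in NT and between 453 and 518 in TRAIL+C3/C2, and its part in the differences is shown by the other scalings given at the end. All 10 colon epithelial markers were well above background on all arrays, as were 2 of 5 leukocyte and 3 of 4 endothelial markers. Of 5 fibroblast markers, COL3A1, THY1 and DCN were well above background on no array, PDGFRB on 1 and COL1A1, the one that passed the filter, on 16. The summed level of these 5 was 0.0296 to 0.0405 times the 75th percentile in NT and 0.382 to 0.44 times it with C3/C2 (0.643 to 0.806 with SN, 0.0286 to 0.0477 with TRAIL, and 0.369 to 0.471 and 0.685 to 1.12 in the co-treatments), and COL1A1 alone stood at 0.357 to 0.408 with C3/C2 and at 0.619 to 0.768 with SN. That of the leukocyte markers was 1.58 to 2.06 in NT and 1.64 to 2.29 with TRAIL, 3.13 to 3.86 with C3/C2 and 3.60 to 4.70 with SN, and 3.19 to 4.15 and 3.56 to 4.74 in the co-treatments, most of it CD14 (1.44 to 1.91 in NT, 2.62 to 3.39 with C3/C2 and 3.25 to 4.46 with SN). The endothelial sum was 0.203 to 0.251 in NT, 0.332 to 0.438 with C3/C2 and 0.369 to 0.419 with TRAIL+C3/C2, and touched NT in the other groups (0.22 to 0.362). The colon epithelial sum was 665 to 751 in NT, 652 to 765 with C3/C2 or SN, 884 to 991 with TRAIL and 895 to 975 in the co-treatments. The part of these genes in the results was not tested. In such RNA from whole cultures, fewer cells of a kind and less RNA per cell cannot be told apart.

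**Figure D1:**
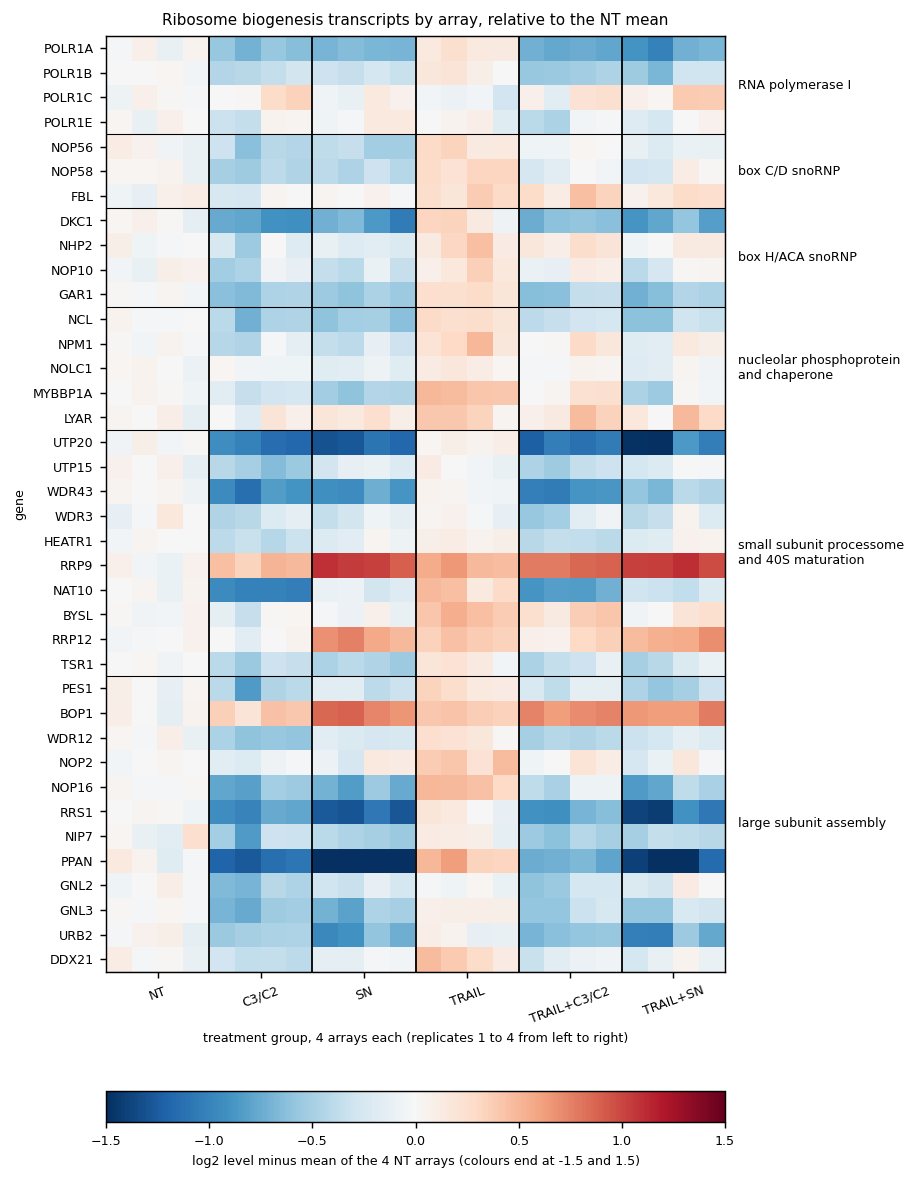
Log2 level of each of the 38 transcripts (rows, by role) on each of the 24 arrays (columns, 4 per group) minus the mean of the 4 NT arrays; blue is lower and red higher than NT, and colors end at -1.5 and 1.5. Most rows are pale red with TRAIL and blue in the 4 groups that had the acids or SN, while RRP9 and BOP1 are red in all 5 treatments.

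With C3/C2, 28 of the 38 transcripts fell, 2 rose and 8 did not pass an adjusted p of 0.05 at any fold. Over all genes tested, 27.7% fell and 35.2% rose at this threshold. The median difference of the members was -0.43, beside 0.08 over all genes. At a fold of 2 or more, 3 members fell (PPAN, UTP20 and NAT10), against 6.18% of all genes, and none rose. Here and in the counts below each gene was read from its brightest probe, and a dimmer probe of POLR1A gave -1.20 with C3/C2. The falls were thus numerous but small, with quartiles of -0.56 and -0.17.

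With SN, 25 members fell, 3 rose and 10 did not pass, beside 34.2% of all genes lower and 35.1% higher, and the median was -0.28 beside -0.02 over all genes. At a fold of 2, PPAN, RRS1 and UTP20 fell (9.75% of all genes did) and RRP9 rose (14.2%). TRAIL alone gave the other direction. Here 20 members rose, none fell and 18 did not pass, beside 20.3% of all genes higher and 13.1% lower, with a median of 0.20 beside 0.03 over all genes, and no member reached a fold of 2. This direction depended on the scaling: with arrays scaled to spike-in probes, 0 members rose and 3 fell with TRAIL and their median was -0.07, and after quantile normalization 9 rose and 0 fell. The medians over all genes with TRAIL were then -0.24 and 0.01, and the shares of all genes at these scalings are not given. At an unadjusted p under 0.05, 21 members were higher with TRAIL and 0 lower when arrays were scaled to the 75th percentile. The SN counts were 17 lower and 3 higher when arrays were scaled to spike-in probes, where the median over all genes was 0.05.

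With TRAIL+C3/C2, 21 members fell, 6 rose and 11 did not pass, beside 29.5% and 39.9% of all genes, with a median of -0.28 beside 0.10. Read from the brightest probes, UTP20 was the only one of the 38 that fell by a fold of 2, as did 7.94% of all genes. Dimmer probes of NOP56 (-1.02) and POLR1A (-1.19) also fell by it. With TRAIL+SN, 18 fell, 4 rose and 16 did not pass, beside 32.7% and 37.4%, with a median of -0.19 beside 0.04. PPAN, UTP20 and RRS1 fell by a fold of 2 (10.1% of all genes did) and RRP9 rose by it (16.1%). Dimmer probes of NOP56 (-1.18 and -1.34) and POLR1B (-1.11) also fell by it with TRAIL+SN. Scaled to spike-in probes, 36 fell and 0 rose with TRAIL+C3/C2 and 35 fell and 1 rose with TRAIL+SN, and after quantile normalization 26 fell in each and 2 and 3 rose. The medians over all genes in the co-treatments were -0.62 and -0.49 with spike-in probes and -0.09 in each after quantile normalization. The shares of all genes at these scalings are not given. These 5 comparisons share the NT arrays. Among the 17033 genes well above background on all 24 arrays, which are more like the members in brightness, 23.6% rose with TRAIL, 30.8% fell with C3/C2 and 36.3% with SN, and 31.6% and 34.7% fell in the respective co-treatments. When each array was left out in turn, 25 of the 30 members that passed with C3/C2 passed in every fit, as did 14 of 20 with TRAIL and 23 of 28 with SN. In the co-treatments these were 22 of 27 (TRAIL+C3/C2) and 20 of 22 (TRAIL+SN).

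**Figure D2:**
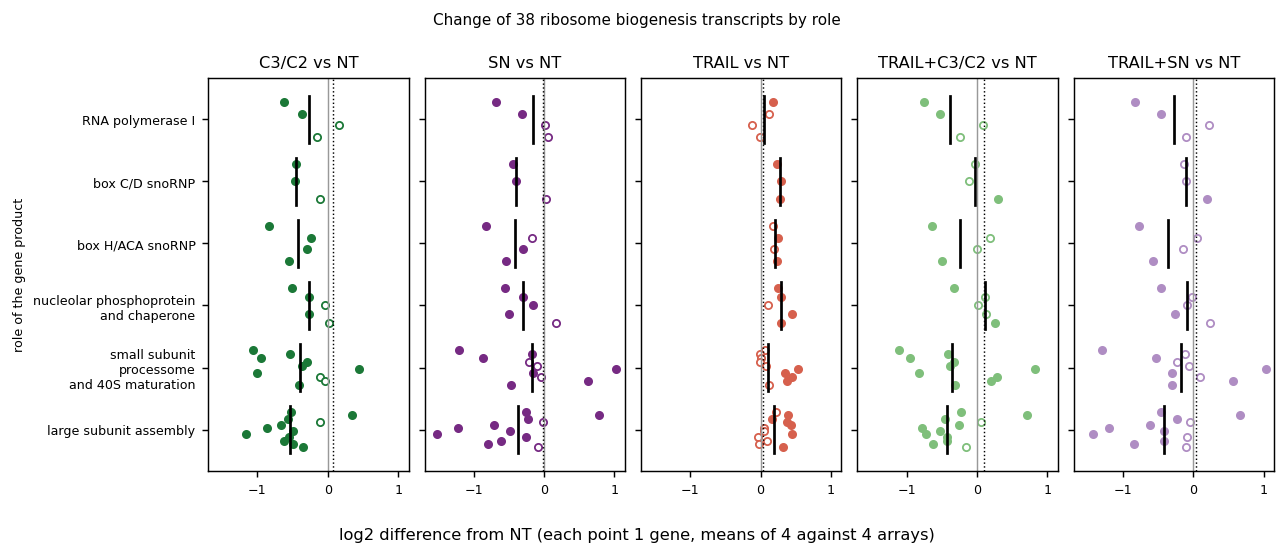
Log2 difference from NT of each of the 38 transcripts (points; filled where the adjusted p was under 0.05), by role, for the 5 treatments; black bars are medians of a role and the dotted line is the median of all 20703 genes tested. Large subunit factors have the lowest median with C3/C2 (-0.54) and spread from -1.52 to 0.79 with SN.

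RNA polymerase I transcribes the rRNA precursor. Its largest subunit, POLR1A, lay at 1.40, 1.49, 1.30 and 1.47 on the NT arrays, at 0.84, 0.71, 0.84 and 0.78 with C3/C2 and at 0.71, 0.76, 0.73 and 0.72 with SN. These arrays were all below the NT arrays, and the differences were -0.62 ± 0.06 and -0.68 ± 0.06 (± SE, limma, adjusted p = 1.61e-08 and 2.98e-09). POLR1A also fell by 0.75 and 0.83 in the co-treatments, while its rise of 0.17 with TRAIL (adjusted p = 0.0396) was lost without any of 6 of the 8 arrays (adjusted p from 0.0508 to 0.136). The second largest subunit, POLR1B, was at 0.72, 0.73, 0.75 and 0.68 in NT, at 0.27, 0.30, 0.36 and 0.45 with C3/C2 and at 0.40, 0.37, 0.45 and 0.38 with SN. It was 0.89, 0.91, 0.80 and 0.73 with TRAIL, 0.15, 0.16, 0.20 and 0.25 with TRAIL+C3/C2 and 0.19, 0.03, 0.42 and 0.41 with TRAIL+SN. Only the TRAIL arrays overlapped NT, and POLR1B fell by 0.37 with C3/C2 and 0.32 with SN, and by 0.53 and 0.45 in the co-treatments with each, all with an SE of 0.07 (limma, adjusted p at most 0.000445). Neither POLR1C, which RNA polymerase III also uses, nor POLR1E passed the threshold in any of the 5 treatments when read from its brightest probe, with differences from -0.24 to 0.22, but other probes of both did, as given with the probes.

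The box C/D snoRNP adds methyl groups to the ribose of rRNA. Its scaffold proteins NOP56 and NOP58 differed from NT by -0.45 and -0.47 with C3/C2 and by -0.44 and -0.40 with SN (limma, adjusted p at most 0.00013). Both were past the threshold in the other direction with TRAIL (0.23 and 0.28, the first not without NT replicate 4 or TRAIL replicate 2, adjusted p = 0.0574 to 0.0587). Neither passed it in a co-treatment when NOP56 was read from its brightest probe. Its other probes fell in both co-treatments, and the dimmest fell with TRAIL, as given with the probes. FBL (fibrillarin), the methyltransferase of the particle, was at 7.53, 7.47, 7.67 and 7.70 in NT, at 7.36, 7.35, 7.64 and 7.60 with C3/C2 and at 7.64, 7.60, 7.66 and 7.58 with SN. These 3 groups overlapped, with differences of -0.11 and 0.02 (adjusted p = 0.245 and 0.802 by limma). FBL was 7.86, 7.78, 7.97 and 7.89 with TRAIL, 7.87, 7.70, 8.05 and 7.93 with TRAIL+C3/C2 and 7.67, 7.75, 7.87 and 7.84 with TRAIL+SN. The TRAIL arrays lay above NT and both co-treatments touched it. FBL rose by 0.28 with TRAIL and, when TRAIL was joined by the acids or SN, by 0.29 and 0.19 (limma, adjusted p = 0.0107, 0.00274 and 0.0425). The last call was lost without NT replicate 1 or 2 or TRAIL+SN replicate 2, 3 or 4 (adjusted p from 0.0545 to 0.134), and all 3 differences were negative after quantile normalization.

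The box H/ACA snoRNP converts uridines of rRNA to pseudouridine, and DKC1 (dyskerin) is its catalytic subunit, also part of telomerase. DKC1 was at 4.83, 4.87, 4.80 and 4.66 in NT, at 4.03, 4.01, 3.89 and 3.87 with C3/C2 and at 4.07, 4.13, 3.93 and 3.74 with SN. It was 5.11, 5.12, 4.93 and 4.71 with TRAIL, 4.05, 4.17, 4.19 and 4.16 with TRAIL+C3/C2 and 3.91, 4.02, 4.21 and 3.96 with TRAIL+SN. Each group with the acids or SN lay below all NT arrays, and DKC1 fell by 0.84, 0.82, 0.65 and 0.77 on the log2 scale with an SE of 0.09 (limma, adjusted p at most 2.66e-06), and TRAIL overlapped NT. GAR1 fell in the same comparisons, by 0.55, 0.54, 0.49 and 0.57 (limma, adjusted p at most 5.03e-06). NHP2 and NOP10 changed less: NHP2 differed by -0.24 with C3/C2 and NOP10 by -0.29 with C3/C2 and -0.30 with SN (limma, adjusted p from 0.0225 to 0.0309), and each of these calls was lost without NT replicate 3 or 4 or a treated replicate 1 or 2 (NOP10) or without NT replicate 1 or C3/C2 replicate 2 (NHP2), at adjusted p from 0.051 to 0.132. NHP2 and NOP10 did not pass in either co-treatment.

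Among the nucleolar phosphoproteins and chaperones, NCL (nucleolin), an abundant protein that binds nascent rRNA, fell by 0.51 with C3/C2 and 0.56 with SN, and by 0.32 and 0.47 in the co-treatments with each (limma, adjusted p at most 0.000662). NPM1 (nucleophosmin), a histone chaperone that shuttles preribosomes, was at 7.70, 7.64, 7.74 and 7.65 in NT, at 7.25, 7.23, 7.65 and 7.53 with C3/C2 and at 7.33, 7.29, 7.55 and 7.37 with SN. It was 7.89, 7.98, 8.17 and 7.85 with TRAIL, 7.68, 7.70, 7.97 and 7.86 with TRAIL+C3/C2 and 7.50, 7.53, 7.83 and 7.77 with TRAIL+SN. The SN and TRAIL arrays lay apart from NT, on opposite sides, and the other groups overlapped it. The differences were -0.27 with C3/C2, -0.30 with SN and 0.29 with TRAIL (adjusted p = 0.0279, 0.0138 and 0.0312 by limma), the last of which was -0.04 after quantile normalization and opposite in sign for another probe. The C3/C2 call was lost without any of NT replicates 1 and 3 and C3/C2 replicates 1 and 2, and the TRAIL call without any of NT replicates 2 and 4 and TRAIL replicates 2 and 3 (adjusted p from 0.0522 to 0.113).

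MYBBP1A, a nucleolar protein that binds the MYB factor and takes part in rRNA synthesis, was at 0.84, 0.91, 0.86 and 0.79 in NT, at 1.35, 1.33, 1.27 and 1.26 with TRAIL and at 0.33, 0.25, 0.41 and 0.39 with SN. The groups did not overlap. It rose by 0.45 ± 0.10 with TRAIL and fell by 0.50 ± 0.10 with SN (limma, adjusted p = 0.00131 and 0.000111). With C3/C2 it was 0.69, 0.51, 0.56 and 0.58, a difference of -0.26 (adjusted p = 0.0244 by limma) that did not pass without NT replicate 2 or C3/C2 replicate 2 (adjusted p from 0.0586 to 0.064). With TRAIL+C3/C2 it was 0.84, 0.89, 1.07 and 1.09, and with TRAIL+SN 0.37, 0.30, 0.86 and 0.80, where replicates 1 and 2 were well below replicates 3 and 4. The difference from NT was 0.12 (adjusted p = 0.275) and -0.26 (adjusted p = 0.0216 by limma), the second of which did not pass without NT replicate 2 or TRAIL+SN replicate 1 or 2 (adjusted p from 0.0523 to 0.115). NOLC1 passed only with SN, at -0.16. LYAR passed with TRAIL (0.30) and TRAIL+C3/C2 (0.26), in each case not without several single arrays (adjusted p up to 0.156), and the latter was -0.09 when arrays were scaled to their median and -0.46 when scaled to spike-in probes.

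The small subunit processome is the large particle that cuts the leader of the rRNA precursor. UTP20, a large scaffold of the processome, was at 1.13, 1.27, 1.14 and 1.19 in NT, at 0.25, 0.17, 0.04 and 0.01 with C3/C2 and at -0.13, -0.09, 0.08 and 0.01 with SN. It was 1.21, 1.27, 1.23 and 1.28 with TRAIL, -0.04, 0.15, 0.07 and 0.13 with TRAIL+C3/C2 and -0.30, -0.62, 0.33 and 0.14 with TRAIL+SN. No array with the acids or SN reached NT, and TRAIL alone overlapped it. UTP20 fell by 1.07, 1.21, 1.11 and 1.30, each with an SE of 0.13 (limma, adjusted p at most 3.56e-07), and was the only one of the 38 transcripts to fall by a fold of 2 in all 4 of these comparisons.

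NAT10, which acetylates cytidines of the small subunit rRNA, was at 2.34, 2.39, 2.24 and 2.39 in NT, at 1.39, 1.33, 1.33 and 1.31 with C3/C2 and at 2.25, 2.25, 2.06 and 2.15 with SN. The C3/C2 arrays lay far below NT and the SN arrays overlapped it. The difference was -1.002 ± 0.07 with C3/C2 (limma, adjusted p = 3.3e-11) and -0.16 ± 0.07 with SN (adjusted p = 0.0383), and the latter call was lost without NT replicate 1, 2 or 4 or SN replicate 3 or 4 (adjusted p from 0.0635 to 0.135). NAT10 was 2.83, 2.79, 2.49 and 2.62 with TRAIL, 1.45, 1.51, 1.499 and 1.62 with TRAIL+C3/C2 and 2.04, 2.01, 1.98 and 2.13 with TRAIL+SN. It rose by 0.34 with TRAIL and fell by 0.82 and 0.30 in the co-treatments (limma, adjusted p = 0.000537, 6.67e-10 and 0.000481).

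WDR43, a subunit that joins the processome early, was at 1.06, 1.01, 1.05 and 0.93 in NT, at 0.06, -0.12, 0.18 and 0.12 with C3/C2 and at 0.09, 0.07, 0.28 and 0.13 with SN. It was 1.06, 1.05, 0.97 and 0.96 with TRAIL, -0.01, -0.04, 0.12 and 0.14 with TRAIL+C3/C2 and 0.43, 0.33, 0.60 and 0.57 with TRAIL+SN. All groups but TRAIL were apart from NT, and TRAIL+SN was apart from all others. WDR43 fell by 0.95, 0.87, 0.96 and 0.53 with an SE of 0.07 (limma, adjusted p at most 1.14e-06). UTP15 and HEATR1, also early subunits, fell with C3/C2 (-0.53 and -0.37) and TRAIL+C3/C2 (-0.42 and -0.39). With SN, HEATR1 differed by -0.10 and did not pass, and UTP15 by -0.17 with an adjusted p of 0.0487 by limma, which became 0.0559 with the replicate number as a block and was lost without any of 6 of the 8 arrays (adjusted p from 0.054 to 0.137). TSR1, a GTPase-like factor of late small subunit maturation, fell in all 4 (from -0.47 to -0.31). Read from its brightest probe, WDR3 passed with C3/C2 (-0.30) and TRAIL+C3/C2 (-0.32) only, both lost without single arrays (adjusted p from 0.0634 to 0.0928). Another probe of WDR3 differed, as given with the probes.

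RRP9, a WD-repeat protein of the snoRNP that guides cleavage in the processome, rose in all 5 treatments. It was at 2.90, 2.78, 2.72 and 2.89 in NT, at 3.27, 3.15, 3.33 and 3.30 with C3/C2 and at 3.91, 3.88, 3.84 and 3.72 with SN. It was 3.38, 3.47, 3.31 and 3.28 with TRAIL, 3.60, 3.59, 3.68 and 3.71 with TRAIL+C3/C2 and 3.85, 3.85, 3.93 and 3.80 with TRAIL+SN. None of the 20 treated arrays overlapped NT, and the rises were 0.44, 1.02, 0.54, 0.83 and 1.03, each with an SE of 0.06 (limma, adjusted p at most 1.07e-06). RRP12, which helps to export preribosomes, was at 1.64, 1.65, 1.68 and 1.74 in NT, at 1.67, 1.504, 1.67 and 1.73 with C3/C2 and at 2.36, 2.43, 2.24 and 2.17 with SN. It was 2.02, 2.12, 2.06 and 2.02 with TRAIL, 1.76, 1.74, 1.97 and 2.04 with TRAIL+C3/C2 and 2.15, 2.21, 2.23 and 2.37 with TRAIL+SN. C3/C2 overlapped NT (-0.03, adjusted p = 0.715), and RRP12 rose by 0.62 with SN, 0.38 with TRAIL and 0.56 with TRAIL+SN (limma, adjusted p at most 5e-04). The difference of 0.20 with TRAIL+C3/C2 (adjusted p = 0.0206) was lost without replicate 3 or 4 of that group (adjusted p from 0.0698 to 0.0927) and was -0.15 when arrays were scaled to their median and -0.52 when scaled to spike-in probes.

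BYSL (bystin), a factor of small subunit maturation, was at 3.21, 3.13, 3.15 and 3.25 in NT, at 3.60, 3.73, 3.64 and 3.57 with TRAIL and at 3.43, 3.32, 3.55 and 3.60 with TRAIL+C3/C2. Both groups lay above NT, by 0.45 and 0.29 (limma, adjusted p = 0.000336 and 0.00437), the second of which was -0.06 when arrays were scaled to their median and -0.43 when scaled to spike-in probes. It was 3.04, 2.84, 3.21 and 3.21 with C3/C2, 3.15, 3.09, 3.26 and 3.07 with SN and 3.13, 3.17, 3.38 and 3.42 with TRAIL+SN, which overlapped NT with differences of -0.11, -0.04 and 0.09.

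Of the 12 large subunit factors, 10 fell with C3/C2, 9 with SN and, in the co-treatments with the acids and SN, 9 and 8. Of all genes, 27.7% fell with C3/C2, 34.2% with SN, and 29.5% and 32.7% in the co-treatments. PPAN, a factor needed for processing of the large subunit rRNA, had the deepest fall of all 38 with C3/C2, SN and TRAIL+SN. It was at -0.05, -0.15, -0.39 and -0.23 in NT, at -1.41, -1.47, -1.34 and -1.29 with C3/C2 and at -1.73, -1.71, -1.73 and -1.74 with SN. It was 0.29, 0.42, 0.13 and 0.12 with TRAIL, -0.95, -0.92, -0.88 and -0.995 with TRAIL+C3/C2 and -1.60, -1.84, -1.73 and -1.36 with TRAIL+SN. No group overlapped NT, and the differences were -1.17, -1.52, 0.45, -0.73 and -1.43 with an SE of 0.09 (limma, adjusted p at most 0.000572). The probe of PPAN lies at chr19:10218744-10218803 on the plus strand of hg19, the build of the array's annotation, and a fusion transcript of PPAN with its neighbor P2RY11 is known, which the probe was not tested for.

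RRS1, which brings the small rRNA of the large subunit into the particle, was at 2.71, 2.76, 2.73 and 2.64 in NT, at 1.78, 1.71, 1.95 and 1.94 with C3/C2 and at 1.45, 1.41, 1.63 and 1.42 with SN. It was 2.89, 2.86, 2.70 and 2.58 with TRAIL, 1.81, 1.79, 2.02 and 2.07 with TRAIL+C3/C2 and 1.32, 1.29, 1.80 and 1.63 with TRAIL+SN. TRAIL overlapped NT and the other groups lay below it, where RRS1 fell by 0.86, 1.23, 0.79 and 1.199 on the log2 scale, with an SE of 0.10 (limma, adjusted p at most 6.83e-07).

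PES1, BOP1 and WDR12 form one complex, PeBoW, that the cell needs to make the large subunit rRNA. Their transcripts did not move together. PES1 was at 0.89, 0.80, 0.67 and 0.85 in NT, at 0.40, -0.05, 0.35 and 0.40 with C3/C2 and at 0.65, 0.64, 0.41 and 0.48 with SN. It was 1.14, 1.06, 0.95 and 0.92 with TRAIL, 0.57, 0.42, 0.67 and 0.66 with TRAIL+C3/C2 and 0.33, 0.22, 0.30 and 0.49 with TRAIL+SN. All groups lay apart from NT, TRAIL above it and the rest below, and PES1 fell by 0.53 with C3/C2 and 0.47 with TRAIL+SN (limma, adjusted p = 4.96e-05 and 0.00016). It differed by -0.26 with SN and -0.22 with TRAIL+C3/C2 (adjusted p = 0.0195 and 0.0414), which did not pass without NT replicate 1 or several other single arrays (adjusted p up to 0.141), and by 0.22 with TRAIL (adjusted p = 0.0834).

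BOP1 went the other way. It was at 3.09, 2.99, 2.85 and 3.04 in NT, at 3.36, 3.19, 3.44 and 3.40 with C3/C2 and at 3.86, 3.88, 3.73 and 3.66 with SN. It was 3.40, 3.42, 3.37 and 3.34 with TRAIL, 3.74, 3.62, 3.71 and 3.74 with TRAIL+C3/C2 and 3.64, 3.62, 3.62 and 3.77 with TRAIL+SN. All 20 treated arrays were above all NT arrays, with rises of 0.35, 0.79, 0.39, 0.71 and 0.67 and an SE of 0.06 (limma, adjusted p at most 0.000116); scaled to spike-in probes, the rise with TRAIL+C3/C2 was gone (-0.01, adjusted p = 0.959). WDR12 fell with C3/C2 (-0.56) and SN (-0.22) and in the co-treatments (-0.45 and -0.23; limma, adjusted p at most 0.00166).

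Of the other large subunit factors, the nucleolar GTPases GNL3 (nucleostemin) and GNL2 fell by 0.63 and 0.56 with C3/C2. GNL3 also fell with SN (-0.62) and in both co-treatments (-0.43 and -0.42), whereas GNL2 did not pass with TRAIL+SN (-0.09). NOP16 fell by 0.66 with C3/C2, 0.71 with SN and 0.62 with TRAIL+SN and rose by 0.43 with TRAIL. Its difference of -0.25 with TRAIL+C3/C2 was lost without any of the NT arrays or replicate 1 or 2 of that group (adjusted p from 0.0604 to 0.168). URB2 and NIP7 fell in all 4 groups with the acids or SN, URB2 by 0.50 to 0.84 and NIP7 by 0.41 to 0.52. NOP2, a methyltransferase of the large subunit rRNA, passed with TRAIL alone (0.37). DDX21, an RNA helicase at the ribosomal DNA, fell with C3/C2 (-0.35), rose with TRAIL (0.32) and did not pass with SN (-0.09) or in the co-treatments (-0.16 and -0.11).

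**Figure D3:**
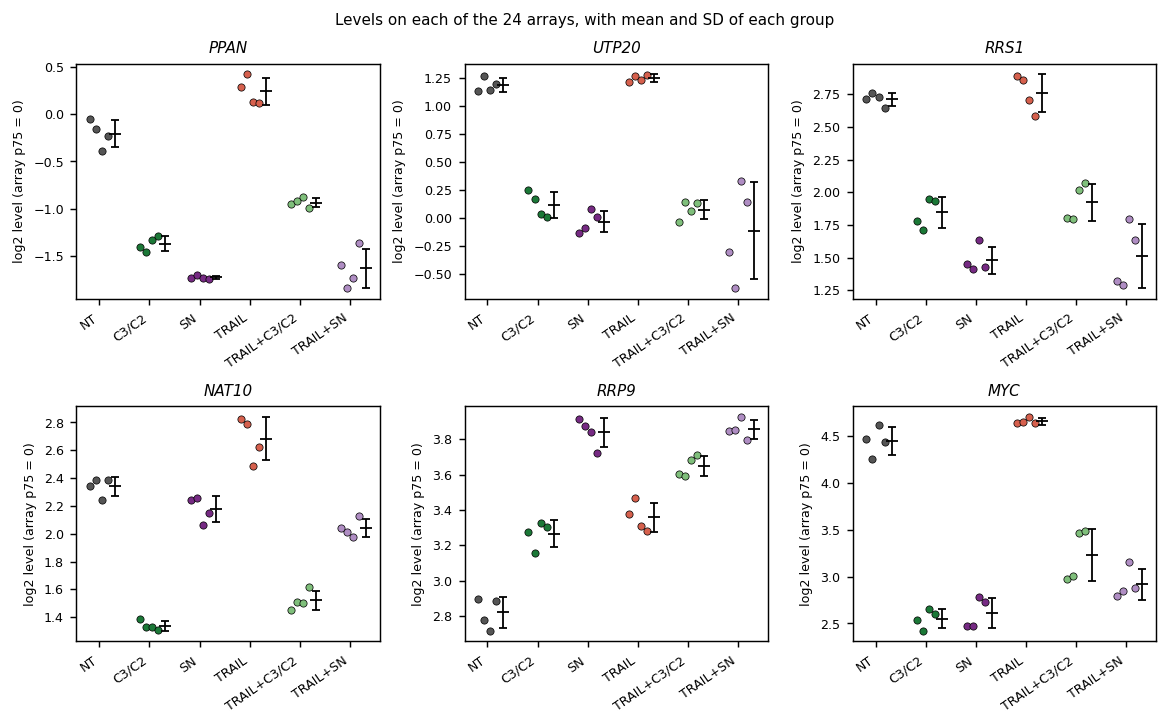
Log2 level (array 75th percentile set to 0) of PPAN, UTP20, RRS1, NAT10, RRP9 and MYC on each of the 4 arrays of the 6 groups, with mean and SD. NAT10 lies between 1.31 and 1.39 with C3/C2 but reaches NT with SN, and RRP9 is lowest in NT.

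SN holds the acids and the other products of the bacteria, so SN against C3/C2 asks what SN does beyond its acids. No group had medium diluted in the same way but without bacteria, so a difference cannot be assigned to bacterial products. The groups lay on different slides. Of the 38 members, 10 were higher with SN than with C3/C2, 4 were lower and 24 did not pass, beside 21.7% of all genes higher and 25.7% lower, and the median was 0.06 beside -0.05 over all genes. Scaled to the array median, 13 were higher and 0 lower with a median of 0.23, and scaled to spike-in probes 22 were higher and 0 lower with a median of 0.31. The medians over all genes were then 0.12 and 0.20, and the shares of all genes at these scalings are not given. The same question in cells with TRAIL, TRAIL+SN against TRAIL+C3/C2, was asked within slide 4 and with other arrays: 8 members were higher, 5 lower and 25 did not pass, beside 15.9% and 21.7% of all genes. The lower count was 2 with the slide as a fixed block and 1 when arrays were scaled to their median or to spike-in probes (7, 8 and 11 higher). The shares of all genes in these settings are not given. No member reached a fold of 2 in either comparison, and the medians over members and over all genes were both -0.06 in the second.

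**Figure D4:**
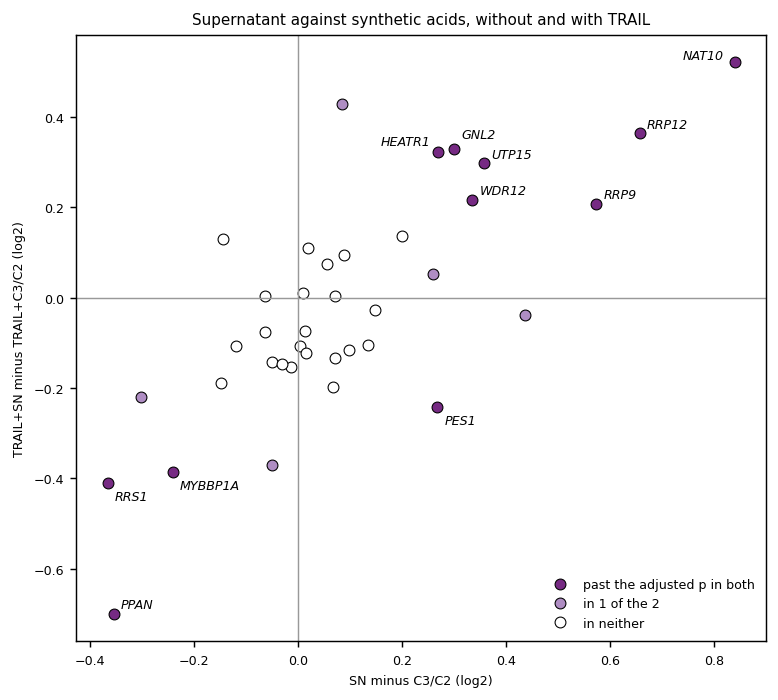
Log2 difference between SN and C3/C2 (horizontal) and between TRAIL+SN and TRAIL+C3/C2 (vertical) of the 38 transcripts, dark where both had an adjusted p under 0.05. NAT10 and RRP12 are higher with SN on both axes, PPAN and RRS1 lower on both, and PES1 is higher on one and lower on the other.

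NAT10 had the largest difference between SN and C3/C2 of the 38: it was higher with SN by 0.84 ± 0.07, and by 0.52 ± 0.07 in the presence of TRAIL (limma, adjusted p = 5.88e-09 and 4.1e-06). RRP12 was higher by 0.66 and 0.36, RRP9 by 0.57 and 0.21, UTP15 by 0.36 and 0.30, HEATR1 by 0.27 and 0.32, GNL2 by 0.30 and 0.33 and WDR12 by 0.34 and 0.22. These 7 of 38 were higher in both, as were 12.1% of all genes. PPAN (-0.35 and -0.70), RRS1 (-0.37 and -0.41) and MYBBP1A (-0.24 and -0.39) were lower in both, as were 12.4% of all genes. The MYBBP1A call without TRAIL did not pass once any one of the 8 arrays was left out (adjusted p from 0.0502 to 0.128). PES1 passed with opposite signs, 0.27 and -0.24, lost without single arrays in either (adjusted p from 0.0706 to 0.134). With the 8 arrays of slide 4 fitted alone, MYBBP1A, PES1 and GNL2 did not pass in the comparison with TRAIL (adjusted p = 0.0734, 0.059 and 0.0748). WDR43 differed by 0.08 (adjusted p = 0.351) without and 0.43 (adjusted p = 8.7e-05) with TRAIL. BOP1 differed by 0.44 (adjusted p = 1.43e-05) without and -0.04 (adjusted p = 0.675) with it. The 2 sets of differences share no arrays. Over the 38 members they correlated at r = 0.75 (Spearman 0.69), beside 0.60 (0.62) over all 20703 genes, while the sign was shared by 26 members (68.4%) and by 73.3% of all genes. This is a description, since the points are genes measured on the same arrays.

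Members that did not pass between SN and C3/C2 were not shown to respond alike. UTP20 differed by -0.15 ± 0.13 and DKC1 by 0.02 ± 0.09. NCL differed by -0.05 ± 0.07 and GAR1 by 0.01 ± 0.07.

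SN and TRAIL shared slide 3, which allowed a comparison within a slide. Against TRAIL, SN gave 30 members lower, 3 higher (RRP9, BOP1 and RRP12) and 5 not past the threshold, beside 33.9% of all genes lower and 32.5% higher. The median was -0.49 beside -0.02 over all genes. Scaled to spike-in probes, 15 were lower and 5 higher with a median of -0.15, and FBL, NOLC1, HEATR1 and GNL2 turned to 0.09, 0.08, 0.16 and 0.13. The median over all genes was 0.33 at this scaling, and the share of all genes is not given for it. At a fold of 2, 5 members were lower (8.00% of all genes were): PPAN fell by 1.97, RRS1 by 1.28, UTP20 by 1.28, NOP16 by 1.14 and DKC1 by 1.001 on the log2 scale. C3/C2 against NT can also be taken within slides. Its median was -0.45 on slide 1, with 1 array a group, and -0.42 on slide 2, with 3 a group. On slide 2, 24 members fell and 2 rose, and the share of all genes in that fit is not given.

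The effects of TRAIL and of the other treatment can be summed on the log2 scale and set against those of both together. For no member did the effect of TRAIL+C3/C2 pass a test against the summed effects of TRAIL and of the acids (0 of 38 by limma; 2 lower and 0 higher at an unadjusted p under 0.05), beside 1.74% of all genes above and 1.14% below the sum. TRAIL+SN fell below the sum for 9 members and above it for 1, beside 12.2% and 11.0% of all genes. Those below were RRP9 (-0.52), BOP1 (-0.51), NAT10 (-0.48), RRP12 (-0.44), PES1 (-0.42), NOP2 (-0.41), PPAN (-0.35), DDX21 (-0.33) and POLR1A (-0.31), and the one above was WDR43 (0.34). PPAN did not pass once any of 12 single arrays was left out, DDX21 any of 8, PES1 any of 5 and NOP2 any of 3 (adjusted p from 0.0533 to 0.106). RRP9, BOP1 and RRP12 had each risen with SN and with TRAIL, so that TRAIL+SN, at 1.03, 0.67 and 0.56 above NT, stood below the sum of both. NAT10 rose with TRAIL alone and was below NT with TRAIL+SN. The terms of this test lay on different slides, which enter it unevenly.

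Several members have more than 1 probe: 50 probes in all, of which 49 passed the filter. Each gene above is read from its probe with the highest mean. The 3 probes of NOP56, all annotated to the same transcript, disagreed in size and with TRAIL in sign. The brightest (mean level 5.28) gave -0.02 with TRAIL+C3/C2 and 0.23 with TRAIL, the next (2.64) gave -0.71 and 0.14, and the dimmest (0.01) gave -1.02 and -0.87. With TRAIL+SN the probes of NOP56 gave, in the same order, -0.13, -1.18 and -1.34. The 4 probes of NPM1 all fell with C3/C2, from -0.32 to -0.27, but with TRAIL+SN the brightest gave -0.03 and the others -0.87, -0.48 and -0.39. With TRAIL the dimmest of them fell by 0.34 (adjusted p = 0.0247 by limma) where the brightest gave 0.29. One of the others is placed on chromosome 15 of hg19 although NPM1 lies on chromosome 5, so it may share sequence with a copy of the gene. The second probe of POLR1E, at a mean level of -2.72 where the brightest was at 0.06, rose by 0.63 with C3/C2 and 0.86 with SN where the brightest did not pass. Of the 3 probes of POLR1C, the second (mean level 2.05, brightest 3.02) rose by 0.35 with TRAIL, by 0.44 with SN and, in the co-treatments with the acids and SN, by 0.43 and 0.35, and the dimmest (-1.75) by 0.43 with C3/C2 and 0.22 in each co-treatment (limma, adjusted p at most 0.0117). The dim probe of POLR1B (-3.94) fell in all 5 treatments, TRAIL included (-0.47, adjusted p = 0.00577 by limma), where the brightest gave 0.11. The dim probe of POLR1A fell with C3/C2 (-1.20) but gave 0.16 with SN, where the bright one fell. The second probe of WDR3 (mean level -0.96, brightest 0.83) fell with C3/C2 by 0.39 (adjusted p = 0.00218 by limma). It gave 0.08 with SN and with TRAIL+C3/C2 and rose by 0.27 with TRAIL+SN (adjusted p = 0.0208 by limma). The brightest probe of WDR3 gave -0.21, -0.32 and -0.23 there.

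MYC, a factor known to drive many of these genes, was set beside them. It was at 4.47, 4.26, 4.62 and 4.43 in NT, at 2.54, 2.42, 2.65 and 2.60 with C3/C2 and at 2.48, 2.47, 2.78 and 2.73 with SN. It was 4.63, 4.65, 4.70 and 4.64 with TRAIL, 2.97, 3.01, 3.47 and 3.48 with TRAIL+C3/C2 and 2.79, 2.85, 3.16 and 2.88 with TRAIL+SN. MYC fell by 1.89, 1.83, 1.21 and 1.53 with an SE of 0.11 (limma, adjusted p at most 6.13e-09) and was 0.21 above NT with TRAIL, an adjusted p of 0.173 that became 0.0368 with the replicate block. Of 12 genes of the MYC network tested, 6 were higher and 3 lower in each co-treatment. These were 50% and 25% of the list, beside 39.9% and 37.4% of all genes higher and 29.5% and 32.7% lower. MYC, MGA and MXD4, named after their values were seen, were the lower ones in both.

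MYC and MAX bind the E-box, and the promoter windows of the members (RefSeq windows of 1 length around each start, most of it before the start, GRCh38.p14) were searched for it in the form CACGTG, which reads the same on both strands. A window was at hand for 31 of the 38 members, 38 windows in all, and 15 of these (39.5%) held the motif, each in another member, beside 7.26% of the 35116 windows of all genes. The windows of NOP58, POLR1E, NOLC1, RRP12, BOP1, RRS1 and URB2 were not used here. Members with the motif had a median difference of -0.35 with C3/C2 and those without it -0.47, and of -0.26 and -0.38 with SN. Among the members with the motif, RRP9 rose with C3/C2, FBL, LYAR, BYSL and NOP2 did not pass, and the rest fell. For 3 members with a single window the motif lies wholly before the start site. All of those stretches, including both of NOP10, are shown with the motif in capitals. With C3/C2, UTP20 and NAT10 were among the deepest falls and NOP10 among the small ones. The stretches are UTP20 at chr12:101280068-101280104 (plus strand), NAT10 at chr11:34105587-34105628 (plus strand) and NOP10 at chr15:34343137-34343174 and, farther from the start, chr15:34343274-34343333 (minus strand), all GRCh38.p14, 5′ to 3′.
UTP20: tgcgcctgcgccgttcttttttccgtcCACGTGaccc
NAT10: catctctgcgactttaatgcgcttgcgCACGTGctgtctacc
NOP10: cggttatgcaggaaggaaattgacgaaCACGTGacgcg
NOP10, farther: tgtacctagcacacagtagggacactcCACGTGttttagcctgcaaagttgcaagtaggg
The motif begins 10 bases before the start in UTP20, 15 in NAT10 and 11 and 170 in NOP10. A match is a match of letters only.

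Beyond the 38, 113 further ribosome biogenesis factors were tested. Of these, 64 fell and 21 rose with C3/C2, with a median of -0.25, and 44 fell and 36 rose with SN, with a median of -0.05. With TRAIL 51 rose and 2 fell (median 0.20). The counts were 40 lower and 37 higher with TRAIL+C3/C2 (median -0.03) and 39 and 39 with TRAIL+SN (median 0.01). Of the 113, 56.6% fell with C3/C2 (27.7% of all genes did) and 45.1% rose with TRAIL (20.3% of all genes). With SN 38.9% fell and 31.9% rose, beside 34.2% and 35.1% of all genes. In the co-treatments 35.4% and 34.5% fell and 32.7% and 34.5% rose, beside 29.5% and 32.7% of all genes lower and 39.9% and 37.4% higher. UBTF, the factor that opens the ribosomal DNA promoter for RNA polymerase I, had the deepest fall in both co-treatments, by 2.28 in each, followed by FCF1 (-1.46 and -1.41) and EMG1 (-1.29 and -1.40), both of the small subunit processome. The largest rises were those of RIOK3 (1.06 and 1.77), ZNF622 (0.84 and 1.02) and NOC4L (0.80 and 0.95). Of 21 genes of RNA polymerase III, which makes the small rRNA and tRNA, 11 fell and 4 rose with C3/C2, 9 fell and 7 rose with SN, 0 fell and 9 rose with TRAIL, and 11 and 10 fell and 7 and 6 rose in the co-treatments. Of 14 genes of the RNA exosome, which trims rRNA precursors, 9 fell and 2 rose with C3/C2, 7 fell and 3 rose with SN, 1 fell and 4 rose with TRAIL, and 9 and 8 fell and 3 and 2 rose in the co-treatments. As shares, 52.4% and 47.6% of the polymerase III genes and 64.3% and 57.1% of the exosome genes fell in the co-treatments, beside 29.5% and 32.7% of all genes, while 33.3% and 28.6% of the former and 21.4% and 14.3% of the latter rose, beside 39.9% and 37.4%. With C3/C2 52.4% and 64.3% of the lists fell (27.7% of all genes), with SN 42.9% and 50% (34.2%), and with TRAIL 42.9% and 28.6% rose (20.3%).

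Same-numbered arrays deviated together in all comparisons but TRAIL+SN against NT, and with the replicate number as a block some members passed that had not. They were WDR3 with SN (-0.21, adjusted p = 0.0331 by limma) and against TRAIL (0.0447), NOP10 with TRAIL (0.19, 0.0248), and POLR1E and NHP2 with TRAIL+C3/C2 (-0.24 and 0.18, 0.0194 and 0.0479). The second probe of WDR3 gave 0.08 with SN. FBL passed between SN and C3/C2 (0.13, 0.0355) and BYSL between the co-treatments (-0.20, 0.0323). GAR1, BYSL and NOP16 fell below the sum of SN and TRAIL (0.0213, 0.0254 and 0.0459), which made 12 members there.

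**Figure D5:**
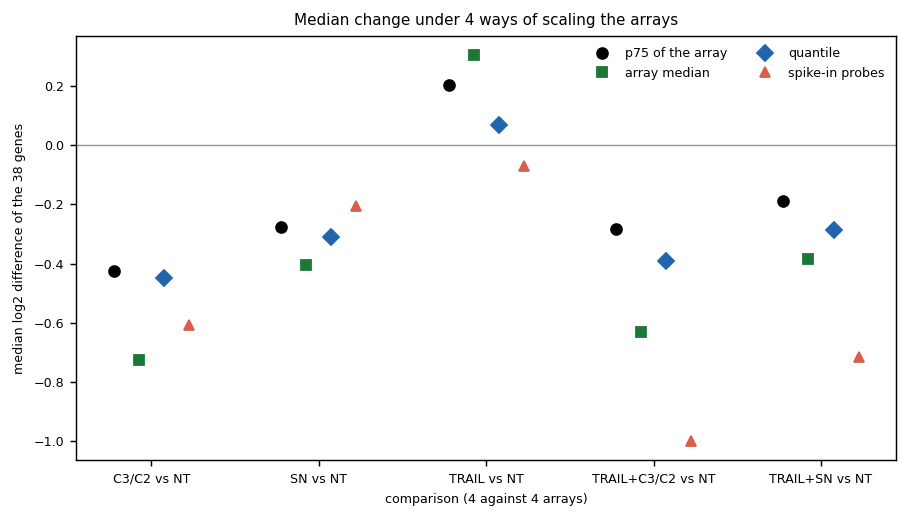
Median log2 difference from NT over the 38 transcripts in the 5 treatments when arrays are scaled to their 75th percentile, their median, by quantiles or to 7 spike-in probes. The medians of the 4 groups with the acids or SN are below 0 under each scaling, and that of TRAIL lies between -0.07 and 0.30.

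The scaling moved the level of all genes. Scaled to the array median, the median over all genes shifted by 0.10 with TRAIL, by -0.30 and -0.13 with C3/C2 and SN alone, and by -0.35 and -0.19 when TRAIL was given with them. Scaled to spike-in probes, the shifts in the same order were -0.27, -0.18, 0.07, -0.71 and -0.53. Quantile normalization shifted it by -0.12 with C3/C2 and by -0.19 and -0.13 in the co-treatments. Relative to the median of all genes, the members stood at 0.17 with TRAIL, -0.50 and -0.26 with C3/C2 and SN and -0.38 and -0.22 in the co-treatments under the 75th percentile, the array median and the spike-in probes alike, since each of these subtracts 1 number per array. After quantile normalization they stood at 0.06, -0.40, -0.22, -0.30 and -0.20.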

How the data were processed

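RNA of 24 HT29 cultures was labeled with Cy3 and hybridized to an Agilent whole human genome array. Spot intensities come from Agilent Feature Extraction 10.7.3.1, run by the authors. Per the file headers the deposited intensity is background-subtracted and detrended but not normalized between arrays. The authors' own table holds the same intensity as a ratio to the array median, which its values bear out; it was used as an alternative. Raw mean and background intensities, as deposited, served for normexp only.

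Control and outlier spots (190 to 315 an array) were left out, spots of a probe were averaged, and log2 intensity was centered on the 75th percentile of each array. Probes were kept if some group had them well above background on each of its 4 arrays (27957 of 50599), and a gene was read from its probe with the highest mean. The 20703 genes were fitted with limma 3.58.1 (R 4.3.3) on 6 groups with 18 residual degrees of freedom, with Benjamini-Hochberg adjustment over all genes. The number of arrays limits the precision. The fit was tested on simulated data. Members, lists and tests were chosen with earlier results of these data known. Values on each array are given for the 3 largest falls and rises of members in each comparison with NT, 1 member of each role, and MYC; POLR1A was added after its values were seen.

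Replicates are numbered 1 to 4 in each group. The correlation of deviations from group means between same-numbered arrays was over 0.1 for every pair in each comparison of 2 groups (0.112 to 0.475) but TRAIL+SN against NT (lowest 0.0899). Over all groups, 57 of 60 same-numbered pairs and 42 of 180 differently numbered pairs were over 0.1. On the slides of SN, TRAIL and the co-treatments the number also followed the place of the array on the slide. A shared experiment and a shared place cannot be told apart there. The main fit has no block.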

Additional observations from a re-analysis of the deposited data

Results flagged for a closer look

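Among 228 sets of 4 arrays (38 members in 6 groups), 7 had an array far from the other 3 by Dixon's test, where chance gives about 11.4 at 1 in 20. They were POLR1A in TRAIL replicate 2 (1.66, the others 1.55 to 1.56), NOP56 in TRAIL+SN replicate 2 (5.21, the others 5.30 to 5.31), NOP58 in NT replicate 4 (4.84, the others 4.98 to 5.00) and NOLC1 in SN replicate 3 (3.41, the others 3.30 to 3.32). The others were PES1 in C3/C2 replicate 2 (-0.050, the others 0.35 to 0.40), BOP1 in TRAIL+SN replicate 4 (3.77, the others 3.62 to 3.64) and NIP7 in TRAIL replicate 4 (1.89, the others 2.11 to 2.14).

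In 10 of 76 tests of whether the effect of an acid or SN treatment differed without and with TRAIL, the difference passed an adjusted p of 0.05 by limma, all for SN: RRP9 (-0.52, adjusted p = 0.000187), BOP1 (-0.51, 0.000563), NAT10 (-0.48, 0.00118), RRP12 (-0.44, 0.00458), POLR1A (-0.31, 0.0135), WDR43 (0.34, 0.0207), PES1 (-0.42, 0.0256), NOP2 (-0.41, 0.0257), DDX21 (-0.33, 0.0346) and PPAN (-0.35, 0.046).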

How the results depend on the processing

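Among 390 results for single genes, the slide as a random block (consensus correlation 0.0256) left 382 on their side of the threshold and 8 lost it. Only NT and C3/C2 had arrays on more than 1 slide, so this block could not show a slide effect in the other groups. The replicate block left 373, lost 1 (UTP15 with SN) and gained 16, and moved no count of members by over 1.5 times. Among the gains were 4 with TRAIL+SN (POLR1C 0.0304, NOP10 0.0405, LYAR 0.0329 and WDR3 0.0233, adjusted p by limma). There the lowest correlation of same-numbered arrays was 0.0899. Normexp, no filter on dim probes and the mean of the probes left 370, 370 and 364. Over 3744 results with 1 array left out, 3566 stayed, 151 were lost, 27 gained and 0 reversed. Signals near background limited dim probes, but every member was well above background on all arrays. The causes of the changes listed here were not tested. Shares of all genes are not given for the counts of members under other settings, so those counts have no background beside them.

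Without the fold, the members called are those past the adjusted p: 30 (C3/C2), 28 (SN), 20 (TRAIL), 27 (TRAIL+C3/C2), 22 (TRAIL+SN), 14 (SN against C3/C2), 33 (SN against TRAIL), 13 (TRAIL+SN against TRAIL+C3/C2) and 10 (TRAIL by SN). At a fold of 1.5 they were 9 (C3/C2), 12 (SN), 10 and 9 (co-treatments), 2 (SN against C3/C2), 16 (SN against TRAIL) and 1 (TRAIL+SN against TRAIL+C3/C2).

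The deposited table, a ratio to the array median, gave the values of that scaling. Scaled so, medians were -0.73 (C3/C2), -0.41 (SN), -0.63 and -0.38 (co-treatments), 0.23 (SN against C3/C2), -0.72 (SN against TRAIL), 0.096 (TRAIL+SN against TRAIL+C3/C2), and -0.19 and -0.30 (TRAIL by C3/C2 and by SN). Calls were 6 (C3/C2), 6 (TRAIL+C3/C2), 1 (SN against C3/C2) and 11 (SN against TRAIL). Higher were 0 (C3/C2), 2 (TRAIL+C3/C2), 1 (SN against TRAIL) and 0 (TRAIL by SN), and lower 0 (SN against C3/C2), 1 (TRAIL+SN against TRAIL+C3/C2) and 1 (TRAIL by C3/C2). With TRAIL+C3/C2, FBL (-0.053), LYAR (-0.089), BYSL (-0.058) and RRP12 (-0.15) reversed, as did FBL with TRAIL+SN (-0.0062).

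Scaled to spike-in probes, medians were -0.61 (C3/C2), -0.071 (TRAIL, reversed), -0.998 and -0.71 (co-treatments), 0.31 (SN against C3/C2), -0.15 (SN against TRAIL), 0.13 (TRAIL+SN against TRAIL+C3/C2), and -0.30 and -0.46 (TRAIL by C3/C2 and by SN). Calls were 6 (C3/C2), 19 and 9 (co-treatments), 1 (SN against C3/C2) and 1 (SN against TRAIL). Higher were 1 (C3/C2), 0 (TRAIL), 0 and 1 (co-treatments), 22 (SN against C3/C2), 5 (SN against TRAIL) and 0 (TRAIL by SN), and lower 3 (TRAIL), 36 and 35 (co-treatments), 0 (SN against C3/C2), 15 (SN against TRAIL), 1 (TRAIL+SN against TRAIL+C3/C2) and 20 (TRAIL by SN). Reversed with TRAIL were POLR1A (-0.10), NOP56 (-0.047), NHP2 (-0.019), GAR1 (-0.039), NCL (-0.031) and WDR12 (-0.11), with TRAIL+C3/C2 FBL (-0.42), LYAR (-0.46), BYSL (-0.43), RRP12 (-0.52) and BOP1 (-0.0058), with TRAIL+SN FBL (-0.34), between SN and C3/C2 MYBBP1A (0.0095), and between SN and TRAIL FBL (0.091), NOLC1 (0.081), HEATR1 (0.16) and GNL2 (0.13).

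After quantile normalization the TRAIL median was 0.066 with 9 higher, and that of TRAIL+C3/C2 -0.39 with 2 called and 2 higher. FBL reversed with TRAIL (-0.033), TRAIL+C3/C2 (-0.057), TRAIL+SN (-0.079) and between SN and TRAIL (0.079), and NPM1 with TRAIL (-0.040). The mean of the probes gave 5 higher with SN, 1 lower with TRAIL, 2 higher for TRAIL by SN and NOP56 at -0.17 with TRAIL, and their median 5 higher with SN. No filter gave 5 lower for TRAIL by SN, and normexp 3 higher with TRAIL+C3/C2, 1 lower for TRAIL by C3/C2 and 0 higher for TRAIL by SN. The slide as a fixed block left 2 lower for TRAIL+SN against TRAIL+C3/C2. With 1 array left out, 4 to 8 were lower there (8 without TRAIL+SN replicate 3) and 2 to 3 between SN and C3/C2 (2 without SN replicate 1; 4 with all arrays).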

Other observations

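Looked at after the values were seen, replicates 1 and 2 both lay below replicates 3 and 4 in 31 of the 38 members with TRAIL+SN, in 30 with TRAIL+C3/C2 and in 24 with C3/C2, while 27.2%, 29.6% and 32.3% of all genes did so. With TRAIL, replicates 1 and 2 lay above in 22 members and below in 3, beside 23.1% and 24.6% of all genes. With SN they lay below in 15 and above in 10, beside 22.1% and 32.2%, and in NT in 5 either way, beside 18.8% and 24.6%. The median member level was 2.27 over replicates 1 and 2 and 2.58 over replicates 3 and 4 with TRAIL+SN, and 2.59 and 2.62 in NT. The labels do not say which replicates were duplicates of one experiment.

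Other promoter letters were searched on both strands in the same windows. The non-canonical E-box CACGCG was in 8 of the 38 windows of members (21.1%) beside 11.4% of all windows, and the ETS core CGGAAG in 19 (50%) beside 19.5%.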
